A study of Saccharomyces cerevisiae with 21 samples.

Results

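The cytosolic Hsp70 chaperones of budding yeast and the proteins that exchange their nucleotide were followed through a cycle of drying and rehydration. The set holds 9 genes. They are the Hsp70 genes SSA1, SSA2, SSA3 and SSA4, the ribosome-associated Hsp70 genes SSB1 and SSB2, the Hsp110 genes SSE1 and SSE2, and FES1. A gene was measured through the probe set whose annotation lists it alone, and 7 of the 9 genes have such a probe set, among 5656 genes in the series. SSB1 and SSB2 have none of their own and share probe set 9094_s_at, and 2 further probe sets list SSA1 and SSA2 together, so these 3 shared probe sets are described apart and enter no count of genes.

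Hsp70 proteins bind exposed stretches of unfolded proteins and let go of them in a cycle driven by ATP. Hsp40 co-chaperones stimulate the hydrolysis of the bound ATP, and nucleotide exchange factors then release the ADP so that the client can leave. In yeast the Hsp110 proteins Sse1 and Sse2 and the armadillo-repeat protein Fes1 are the cytosolic exchange factors, Ssa1 and Ssa2 are made in growing cells, and Ssa3 and Ssa4 are the stress-inducible forms. Ssb1 and Ssb2 fold nascent chains at the ribosome together with the Zuo1 and Ssz1 proteins.

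Total RNA of strain BY4743 was measured on 21 Affymetrix YG_S98 arrays, at 7 time points with 3 arrays each. All cells were grown at 30 °C to an A600 of 0.8 in the rich medium YPD and then moved to YPD diluted 20-fold at 22 to 25 °C, where the control was taken. Drying cells were sampled at 18 h. Cells were dry at 42 h, and the dry sample was taken after a further 72 h at 20% relative humidity. The remaining samples came 15, 45, 90 and 360 min after diluted YPD was added back, and per the labels cells of several plates were pooled for them. Control and dried cells share strain and medium. The controls, taken before drying, are the only undried samples. Changes described as drying below therefore cannot be told apart from those of time spent in diluted YPD at 22 to 25 °C. BY4743 is a diploid laboratory strain, and the labels name no further genotype. It is known to carry deletions at URA3, LEU2 and HIS3. Of these 3 genes 2, LEU2 and HIS3, were above background on all 3 control arrays, and why was not tested. Nothing in the labels says that the 3 samples of a time point came from separate cultures, so the p-values rest on a spread between samples that may be only technical.

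Each value below is a probe set signal on the linear scale of the array software, with every array scaled to the same mean (2% trimmed means of 500.21 to 500.58). A change is therefore relative to the scaled RNA of its array, and fewer cells and less RNA per cell cannot be told apart. Signals at or under 29.64 are called background, a limit set by the 95th percentile over 19 probe sets for foreign genes that were not added. Genes of haploid or mating cells summed to 532.7 to 614.9 on the control arrays, with 8 of 12 at background on all 3, and to 805 to 986.6 on the dry arrays, with 1 of 12 at background. Meiosis and sporulation genes summed to 324.5 to 396.9 (7 of 10 at background) on the control arrays and to 4405.7 to 4556.5 (3 of 10) at 18 h, and their part in the results below was not tested. The ratio of 3′ to 5′ signal along the ACT1 transcript, which grows as RNA shortens, went from a log2 of -0.31 ± 0.14 in control to 1.05 ± 0.10 in dry cells and 2.32 ± 0.04 at 360 min (SD, n = 3). That of SRB4 was 0.82 ± 0.32, 1.72 ± 0.17 and 2.13 ± 0.21 at the same time points, and that of SPT15 was lower in dry cells than in control, at 1.66 ± 0.03, 1.27 ± 0.05 and 2.78 ± 0.24. The part of RNA length in the results below was not tested either. The control arrays and the 18 h replicate 2 were scanned on the first of 4 scan days, the other 18 h arrays with the dry, 15 min and 45 min arrays on the second, and the later arrays on the remaining days. Time and scan day therefore cannot be told apart for 90 against 45 min and for 360 min against dry or control. Control and dry arrays share no scan day either, and with the scan day as a block 18 h replicate 2 alone links their days. Values of 18 h against control within the first scan day rest on that array as the only one at 18 h.

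All 7 genes with a probe set of their own differed over the 7 time points (limma's moderated F test, Benjamini-Hochberg adjusted p under 0.05 over 9275 probe sets), as did 84.2% of all probe sets. The genes are first counted step by step, and the sections on the individual genes give their values. At 18 h of drying against control, SSA3 and SSE2 rose and SSA2 and SSE1 fell, where 36.2% of all probe sets were called higher and 27.3% lower. From 18 h to the dry state SSE1 and SSE2 rose and none of the 7 was called lower, beside 22.1% of all probe sets called higher and 17.0% lower, although SSA4 was called lower under several other settings given with that gene. In the first 15 min of rehydration SSA1 and SSA3 rose and SSA4, SSE1 and SSE2 fell, beside 12.8% and 27.5% of all probe sets. With quantile normalization or with median centring only 3 of the 7 genes were called at this step. Between 15 and 45 min limma called 0 of the 7 genes, none of them at an unadjusted p under 0.05 either, beside 0.270% higher and 0.151% lower. From 45 to 90 min only SSE2 fell among the 7, beside 2.17% higher and 3.31% lower. From 90 to 360 min SSA3, SSE2 and FES1 fell and none of the 7 rose, beside 15.4% higher and 22.0% lower.

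**Figure D1:**
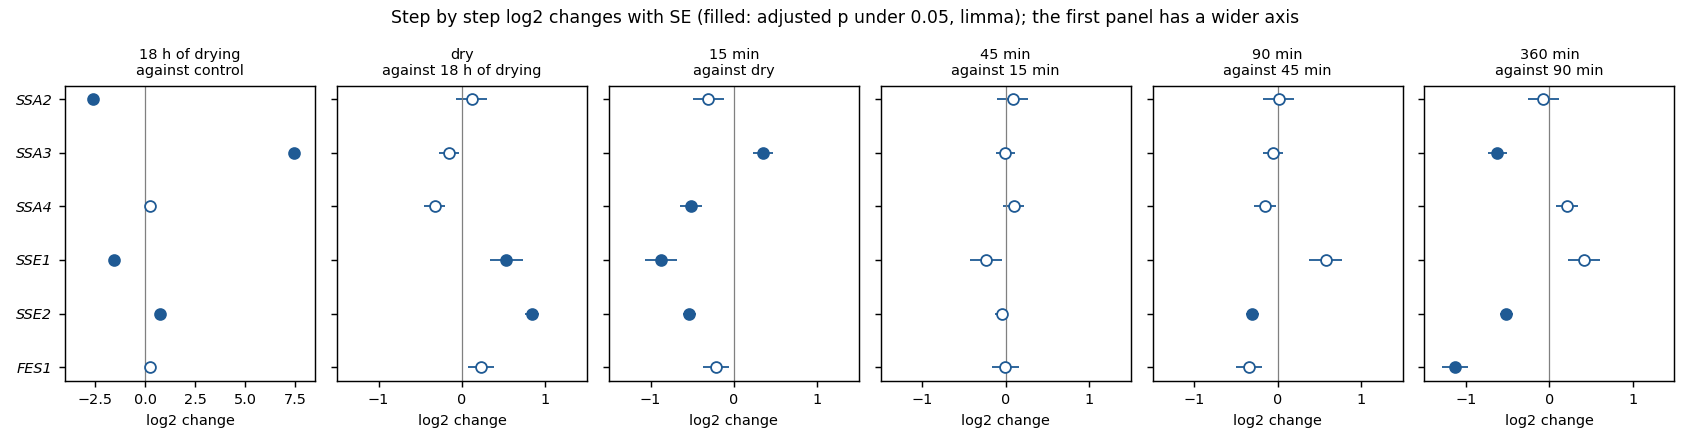
Log2 change (x axis) of 6 genes (y axis) in each of 6 successive comparisons, with standard errors from the limma fit and filled points at adjusted p under 0.05. SSA3 stands at 7.47 and SSA2 at -2.60 in the first panel, whose axis is wider, and none of the genes is called between 15 and 45 min. SSA1 is left out because its probe set is listed at 0 on most early arrays.

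Over the longer spans, SSA3, SSE2 and FES1 were higher and SSA2 and SSE1 lower in dry cells than in control, where 40.1% of all probe sets were called higher and 27.2% lower. Between the dry state and 360 min SSA1 rose and SSA3, SSA4, SSE2 and FES1 fell, beside 21.2% higher and 40.7% lower. All 7 genes were called at 360 min against control, SSA1, SSA3 and SSE2 higher and SSA2, SSA4, SSE1 and FES1 lower, beside 33.7% higher and 36.4% lower. Comparisons that share the control, 18 h or dry arrays are not independent of each other.

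The balance of higher and lower calls over all probe sets depended on the scaling. Of the probe sets called in dry against control, 59.6% were higher, against 48.1% with each array centred on its median and 48.7% with arrays scaled to the added control transcripts. Those are the BioB, BioC, BioDn and CreX transcripts. At which step they were added was not checked here, so scaling to those transcripts gives no measure of RNA per cell. For 18 h against control the share was 57.0% and with those transcripts 44.3%. For dry against 18 h it was 56.5% and with median centring 41.5%. For 15 min against dry it was 31.7%, but 70.3% with median centring, 51.2% with quantile normalization and 1.27% with the added transcripts. For 45 against 15 min it was 64.1% and with median centring 80%, and for 90 against 45 min it was 39.6% and with the added transcripts 1.82%. For 360 against 90 min it was 41.2%, with median centring 53.1% and with the added transcripts 1.15%. For 360 min against dry it was 34.3%, with median centring 60.0%, with quantile normalization 46.4% and with the added transcripts 0.819%, and for 360 min against control 48.1% and with the added transcripts 5.17%. Scaling to the added transcripts moved the median log2 change of all probe sets by -0.29 at 18 h and by -0.31 in dry cells against control, by -0.73 at 15 min against dry, by -0.96 at 360 against 90 min, by -2.01 at 360 min against dry and by -2.32 at 360 min against control. Median centring moved it by -0.32 for dry against control, 0.38 for 15 min against dry and 0.52 for 360 min against dry. Directions of members that turn under one of these scalings are named with the member.

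SSA2, one of the constitutive Hsp70 genes, fell early and stayed low. Its probe set 10362_at, which carries no cross-hybridization suffix, read 3891.5, 3791.8 and 3776.1 on the control arrays, 602.6, 749.9 and 550.7 at 18 h and 702.7, 730.9 and 617.8 in the dry state. On the 12 rehydration arrays it lay between 417.9 and 672.3. Every array after the control was below all 3 control arrays, and the later time points overlapped with each other. The log2 change at 18 h was -2.60 ± 0.18 (SE, limma, adjusted p = 2.61e-09), or 6.02-fold lower, and -2.35 within the first scan day. It was -2.77 ± 0.18 at 360 min against control (adjusted p = 8.47e-10). None of the 5 steps after 18 h passed the test, the largest of them being -0.31 ± 0.18 at 15 min against dry (adjusted p = 0.209). With the added transcripts SSA2 was called lower at 15 min against dry (-1.03, adjusted p = 5.24e-04) and at 360 against 90 min (-1.03, adjusted p = 4.16e-04). The same held at 360 min against dry (-2.29, adjusted p = 1.36e-08), where the deposited scaling gave -0.28 and no call.

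SSA1, the other constitutive member of the pair, is represented by 11316_r_at, a probe set with the suffix that marks a choice of probes not meeting all design rules. It was listed at 0, 0 and 0.1 on the control arrays, 0, 209.5 and 0 at 18 h and 0 on all 3 dry arrays. It then read 4883.5, 21.6 and 6178 at 15 min, 7562.8, 7741.7 and 7589.4 at 45 min, 6442.8, 2462.7 and 6455.2 at 90 min and 6571.1, 6462.3 and 7512.5 at 360 min. At 15 min replicate 2 was under background while the other two arrays were high, and at 90 min replicate 2 was again the lowest. The rise from dry to 15 min passed the test (limma, adjusted p = 0.00133), as did 360 min against dry (adjusted p = 3.11e-05), and no fold is given since the earlier values are listed at 0. The 18 h difference from control did not pass over all arrays (adjusted p = 0.317). It passed within the first scan day (adjusted p = 0.0218), where the 18 h group is the array at 209.5 alone.

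The probe sets that list SSA1 and SSA2 together differed from each other in direction. Probe set 11315_i_at, whose suffix marks fewer unique probes than the design asked for, was listed at 0, 0 and 0.1 on the control arrays and read 2671.9, 2655 and 3151.2 at 18 h. It reached 12707.8, 12774 and 11722 at 45 min and 12080.2, 11489.9 and 13233 at 360 min. From dry to 15 min it rose (log2 1.48 ± 0.28, limma adjusted p = 6.71e-04) to 9145.2, 3941.3 and 11601.9, with replicate 2 far below the others. With the added transcripts that rise was 0.75. From dry to 360 min the log2 change was 2.19, but 0.18 and not called with the added transcripts. Probe set 11317_s_at, whose suffix marks probes common to several genes, fell instead. It read 4613.2, 4845.8 and 4439.1 on the control arrays, 2740.6, 3020.8 and 2578.9 in the dry state and 1566.7, 1457.2 and 1491.6 at 360 min, a log2 change of -1.62 ± 0.11 from control (adjusted p = 1.55e-09). Its fall from dry to 15 min (-0.67 ± 0.11, adjusted p = 2.37e-04) missed the threshold with median centring (-0.29, adjusted p = 0.0756). Of all 9275 probe sets, 7 were at most 0.1 on all 3 control arrays, and the only 2 of these that exceeded 1000 on some array were 11316_r_at and 11315_i_at. The probe sets annotated to this gene pair thus gave opposite directions, and whether the SSA1 transcript was absent from the control cells cannot be read from these values.

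**Figure D2:**
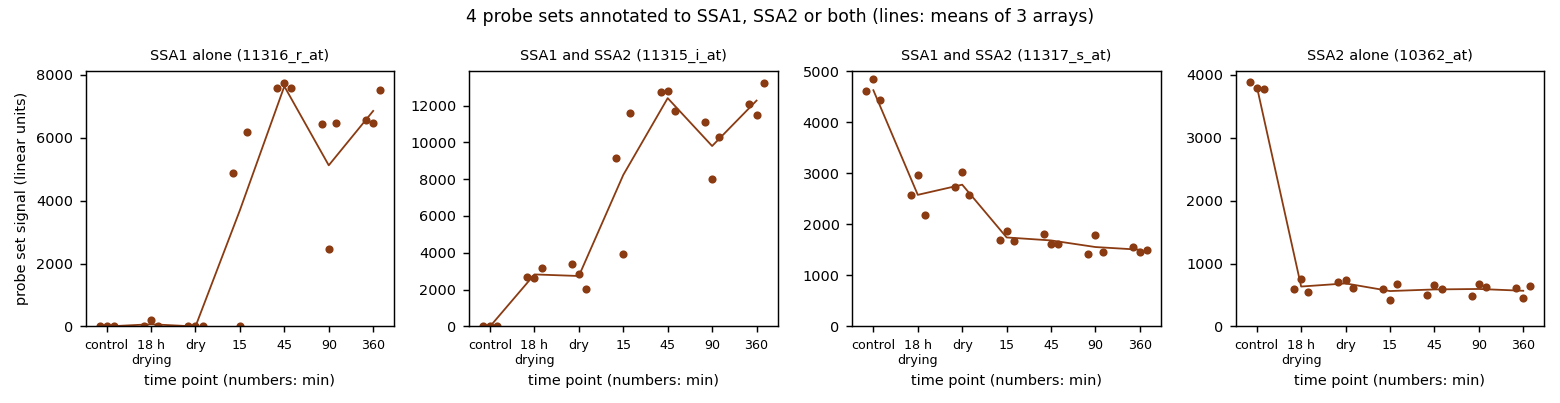
Probe set signal (y axis, linear units, own scale in each panel) at the 7 time points (x axis) for the 4 probe sets annotated to SSA1, SSA2 or both, with 1 point per array and a line through the means of 3 arrays. Both probe sets that are listed at 0 or 0.1 on the control arrays are high during rehydration, and the other two are highest on the control arrays.

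SSA3, a stress-inducible Hsp70 gene, had the largest estimated rise on drying among the 7 genes, although SSA1 was listed at 0 on most early arrays. Probe set 7422_at read 29.8, 27.7 and 31.1 on the control arrays, around the background of 29.64. It read 5203, 4719.6 and 5814.1 at 18 h, and 4858.2, 4227.6 and 5003.6 in the dry state. Against the control held at no less than background, SSA3 was at least 173-fold higher at 18 h, and limma's log2 change was 7.47 ± 0.12 (adjusted p = 4.77e-17), above 99.8% of all probe sets. The value within the first scan day was 7.32. During rehydration it read 6053.6, 6348.7 and 5538.1 at 15 min, 6258.9, 4992.6 and 6755.5 at 45 min and 5864.8, 5703.8 and 5633.1 at 90 min, which overlap throughout. At 360 min it had come down to 3594.9, 4199.5 and 3402.2, below every array of 90 min, by a log2 of -0.63 ± 0.12 (adjusted p = 5.69e-04, -0.63 within the shared scan day). That level was still at least 123-fold above the control. Both fold bounds hold for the deposited scaling alone. The added transcripts moved the median log2 change of all probe sets by -0.29 at 18 h and by -2.32 at 360 min against control.

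The smaller SSA3 changes depended on scaling and on single arrays. The rise from dry to 15 min was 0.35 ± 0.12 (adjusted p = 0.0266), but -0.11 with quantile normalization and -0.38 with the added transcripts. It passed in 3 of the 6 fits that left out 1 array, and was lost without dry replicate 2 (0.28), 15 min replicate 1 (0.34) or 15 min replicate 2 (0.31). The fall from dry to 360 min was -0.33 ± 0.12 (adjusted p = 0.0220), turned to 0.19 with median centring and was lost without dry replicates 1 or 3 (-0.31 and -0.29) or 360 min replicates 1 or 3 (-0.31 and -0.27).

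SSA4, the other stress-inducible gene, stayed within a narrow range. Probe set 5588_at read 418.1, 408 and 398.4 on the control arrays, 478.8, 503.7 and 467.8 at 18 h and 357.4, 402.5 and 396 in the dry state. The 18 h arrays were all above the control arrays, yet the change of 0.24 ± 0.13 did not pass (adjusted p = 0.114), and dry against control was -0.08 ± 0.13 (adjusted p = 0.589), although -0.40 and called with median centring (adjusted p = 0.0220). From 18 h to the dry state every array was lower, by a log2 of -0.33 ± 0.13 (adjusted p = 0.0558). That fall passed with quantile normalization (-0.49), median centring (-0.50), the scan day as a block (-0.30, adjusted p = 0.0266), log2(value + 50), the higher floor, the filter on dim probe sets, the intensity trend and only the 2 groups compared. At 15 min the values were 265.4, 274.9 and 268.1, below every dry array by a log2 of -0.51 ± 0.13 (adjusted p = 0.00499). That call was lost with median centring (-0.13) and quantile normalization (-0.19). From 45 min on, the arrays ranged from 198.5 to 326.1. At 360 min SSA4 was 0.44 ± 0.13 below control (log2 -0.44, adjusted p = 0.00604), a call lost with median centring (-0.24) and quantile normalization (-0.15). Its fall from dry to 360 min (-0.36 ± 0.13, adjusted p = 0.0245) turned to 0.16 under both of these scalings and was lost without dry replicates 2 or 3 (-0.33 and -0.34) or 360 min replicate 1 (-0.34). From 90 to 360 min its change of 0.21 did not pass, but it passed with quantile normalization (0.37) and without 90 min replicate 1 (0.37) and turned to -0.75 with the added transcripts, where it passed too.

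**Figure D3:**
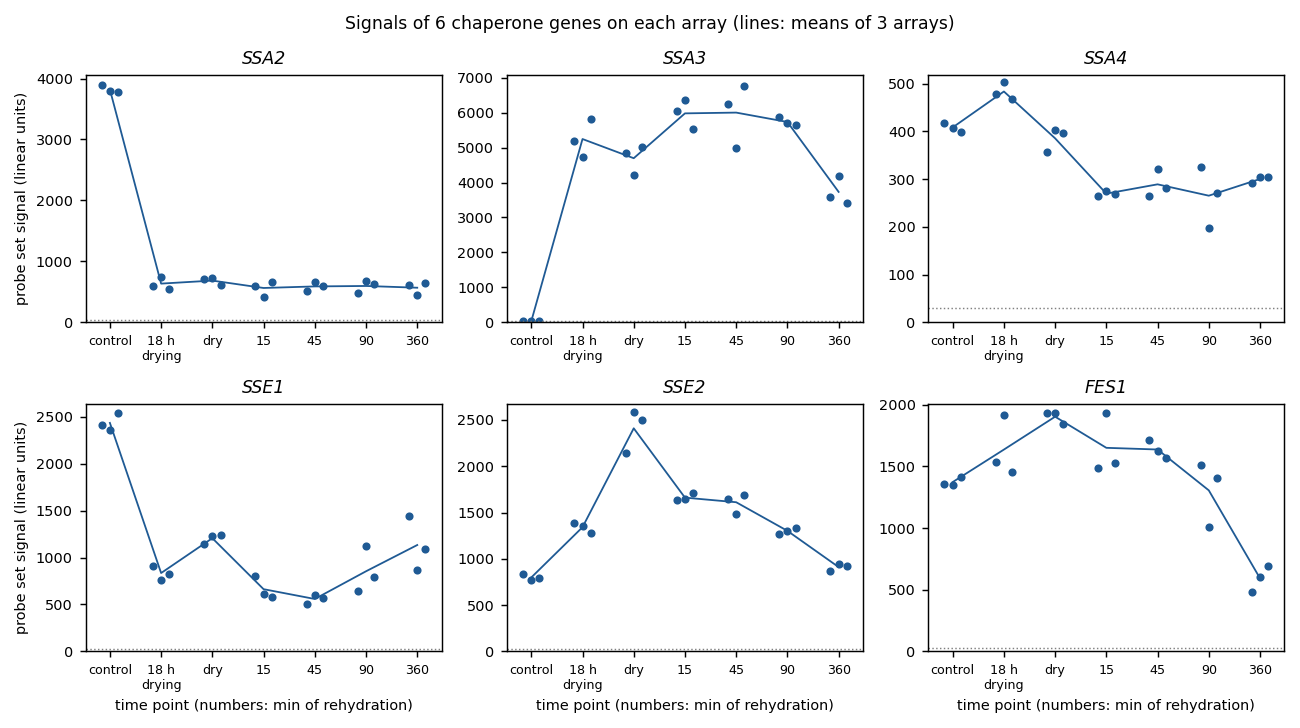
Probe set signal (y axis, linear units, own scale in each panel) at the 7 time points (x axis) for SSA2, SSA3, SSA4, SSE1, SSE2 and FES1, with 1 point per array and a line through the means of 3 arrays. The dotted line is the background of 29.64. SSA3 is at 27.7 to 31.1 on the control arrays, around background, and between 3402.2 and 6755.5 on all others, SSE2 peaks in the dry state and FES1 is lowest at 360 min.

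The ribosome-associated Hsp70 genes SSB1 and SSB2 could be seen only jointly, through 9094_s_at. It read 4144.9, 4546.6 and 4406.6 on the control arrays, 1052, 1035.7 and 907.9 at 18 h and 483, 665.4 and 708.2 in the dry state. The groups do not overlap, and the log2 changes were -2.13 ± 0.18 at 18 h (adjusted p = 2.69e-08, -2.07 within the first scan day) and a further -0.71 ± 0.18 to the dry state (adjusted p = 0.00542). Values stayed between 436.8 and 582.4 at 15 and 45 min. They were 579.5, 996.9 and 784.2 at 90 min and 2332.4, 2033.6 and 2112.1 at 360 min. The rise from 90 to 360 min was 2.74-fold (log2 1.49 ± 0.18, adjusted p = 1.12e-05, and 1.68 within the shared scan day), but 0.53 with the added transcripts (adjusted p = 0.0628). From dry to 360 min the log2 change was 1.82 ± 0.18 (limma, adjusted p = 2.65e-07), but -0.19 and not called with the added transcripts. At 360 min the signal was still 2.02-fold below control (log2 -1.02 ± 0.18, adjusted p = 1.01e-04). The size of that difference depended on the scaling. It was -0.81 with median centring, -1.37 with quantile normalization and -3.33 with the added transcripts, called in each.

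SSE1, the more abundant Hsp110 exchange factor of growing cells, fell on drying. Probe set 7874_at read 2408, 2356.2 and 2535.9 on the control arrays, 913.3, 765.6 and 825.8 at 18 h and 1141.1, 1233.2 and 1244.3 in the dry state. The fall at 18 h was 2.91-fold (log2 -1.55 ± 0.19, adjusted p = 2.70e-06, -1.67 within the first scan day). The rise from 18 h to dry was 0.53 ± 0.19 (adjusted p = 0.0384), although the groups do not overlap. It missed the threshold within the second scan day (0.47, adjusted p = 0.115), with median centring (0.36), with the added transcripts (0.51), with the replicate block (adjusted p = 0.0559) and without any one of the arrays but 18 h replicate 1 (0.47 to 0.57). At 15 min SSE1 read 800.8, 611.7 and 576.9, below every dry array by a log2 of -0.88 ± 0.19 (adjusted p = 0.00199). It was lowest at 45 min, at 502.1, 601 and 573, and spread widely later, at 638.7, 1124.3 and 797.9 at 90 min and 1440.6, 868.9 and 1089.9 at 360 min. The last step of 0.42 ± 0.19 did not pass (adjusted p = 0.105), whereas it passed within the shared scan day (0.64, which leaves out 90 min replicate 2), without 360 min replicate 2 (0.59) and with median centring (0.53). The rise from 45 to 90 min (0.58, adjusted p = 0.0951) passed without 90 min replicate 1 (0.77). From dry to 360 min the SSE1 change of -0.12 did not pass (limma, adjusted p = 0.617), but it was -2.13 and called with the added transcripts. At 360 min SSE1 was 2.15-fold below control (log2 -1.13 ± 0.19, adjusted p = 6.41e-05).

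SSE2, the stress-responsive Hsp110 gene, took a different course, peaking in the dry state. Probe set 7171_at read 833.2, 766.4 and 796.7 on the control arrays, 1385.3, 1355.7 and 1284.3 at 18 h and 2140.9, 2584.1 and 2503.5 in the dry state, with no overlap between these groups. Against control SSE2 was 3.02-fold higher in dry cells (log2 1.59 ± 0.08, adjusted p = 2.07e-11). Its 2 steps were 0.75 ± 0.08 and 0.84 ± 0.08, with 0.76 and 0.85 within a scan day. On rehydration it fell to 1632.4, 1645.2 and 1705.6 at 15 min (-0.53 ± 0.08, adjusted p = 7.46e-05, but -0.15 and not called with median centring). It read 1649.8, 1489.5 and 1694.6 at 45 min, 1270.6, 1299.1 and 1337.4 at 90 min and 868.2, 943 and 922.4 at 360 min. The step from 45 to 90 min was -0.31 ± 0.08 (adjusted p = 0.0343) and was lost without any one of the arrays but 45 min replicate 2 (-0.27 to -0.32). The step from 90 to 360 min was -0.52 ± 0.08 (adjusted p = 8.95e-05), also within the shared scan day (-0.52). At 360 min SSE2 remained 0.19 ± 0.08 above control (adjusted p = 0.0415), with all 3 arrays above the control arrays, but the call was lost without control replicates 2 or 3 (0.16 and 0.19) or 360 min replicates 2 or 3 (0.16 and 0.18), and the value was -2.13 with the added transcripts.

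FES1, the exchange factor built of armadillo repeats, was somewhat higher in dry cells than in control and fell late. Probe set 7282_at read 1357.8, 1351 and 1410 on the control arrays, 1538.1, 1913.6 and 1457.2 at 18 h and 1931.7, 1934.7 and 1842.2 in the dry state. The change at 18 h was 0.24 ± 0.16 and did not pass (adjusted p = 0.192). It was 0.48 with the scan day as a block, an estimate that rests on 18 h replicate 2, the array at 1913.6. It passed with quantile normalization (0.37, adjusted p = 0.0464). Dry cells were above control by 0.47 ± 0.16 (adjusted p = 0.0142), a call lost with median centring (0.15) and with the added transcripts (0.16). The arrays of 15 and 45 min lay between 1486 and 1935.4. With the added transcripts FES1 was already called lower at 15 min against dry (-0.94, limma adjusted p = 0.00316). At 90 min the values were 1508.2, 1005.8 and 1403.4, and at 360 min 484.3, 603.7 and 690.5. These last 3 arrays were the lowest of all 21. The fall from 90 to 360 min was 2.20-fold (log2 -1.13 ± 0.16, adjusted p = 3.64e-05, -1.31 within the shared scan day), and FES1 ended 2.32-fold below control (log2 -1.23 ± 0.16, adjusted p = 2.67e-06).

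Related genes were compared by the change of their log2 difference within an array, over 2 pairs and 3 comparisons, with an exact two-sided permutation test of 3 arrays against 3 whose smallest p is 0.1. The SSA3 minus SSA4 difference was higher than in control by 7.23 ± 0.13 at 18 h and by 7.40 ± 0.13 in dry cells (log2 units, SE, exact p = 0.1 for each, 0.12 after Benjamini-Hochberg adjustment over the 6 tests), and the arrays did not overlap. Since SSA3 lay around background in control, these sizes depend on how low values are treated, and they were 5.83 and 5.97 with log2(value + 50). Between dry and 360 min the SSA3 minus SSA4 difference changed by 0.03 ± 0.14 (exact p = 0.9). The SSE1 minus SSE2 difference changed by -2.29 ± 0.08 at 18 h and by -2.60 ± 0.06 in dry cells against control, and by 1.28 ± 0.25 from dry to 360 min (exact p = 0.1 and adjusted 0.12 for each, no overlap). A common scaling of an array cancels in these differences.

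**Figure D4:**
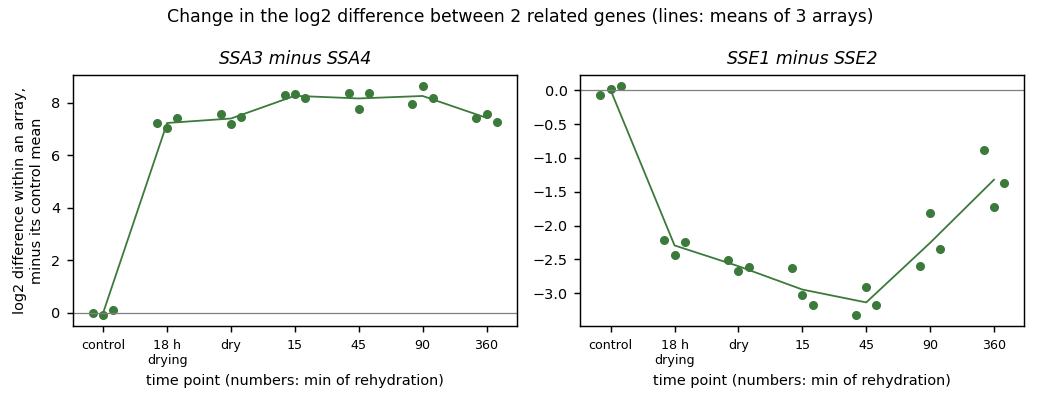
Log2 difference within an array between 2 related genes, minus its mean on the control arrays (y axis), at the 7 time points (x axis), with 1 point per array and a line through the means. SSA3 minus SSA4 stands at 7.23 at 18 h (5.83 with log2(value + 50), since SSA3 lay around background in control) and at 7.40 in the dry state. SSE1 minus SSE2 stands at -2.29 at 18 h and changed by 1.28 from the dry state to 360 min.

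Of 13 Hsp40 partner genes 9 rose and 2 fell in dry cells against control, beside 40.1% and 27.2% of all probe sets. With the scan day as a block 6 rose and 2 fell. The median log2 change of the 13 was 0.86 beside 0.24 over all probe sets. SIS1, an essential cytosolic Hsp40, went from 1092.4 ± 26.1 to 3557.9 ± 252.1 (SD, n = 3, log2 1.70 ± 0.18, limma adjusted p = 2.38e-07) and was at 705.8 ± 53.3 at 360 min. APJ1 went from 61.0 ± 3.4 to 629.7 ± 63.7 and then 140.4 ± 31.2, and DJP1, of peroxisomal import, from 84.3 ± 6.2 to 420.1 ± 38.7 and then 189.6 ± 29.1. CAJ1 and JJJ3 did not pass. The 2 that fell were YDJ1, the abundant farnesylated Hsp40, at 3099.6 ± 125.0 in control and 1662.1 ± 155.2 in dry cells (-0.90 ± 0.11, adjusted p = 2.67e-06), and ZUO1. ZUO1, the ribosome-associated Hsp40 that works with Ssb, fell from 2821.1 ± 72.8 to 320.7 ± 36.1 (-3.14 ± 0.15, adjusted p = 1.60e-11) and was at 259.6 ± 24.7 at 360 min. The shared SSB probe set was higher at 360 min than in dry cells, though not with the added transcripts (-0.19). From dry to 360 min 9 of the 13 fell and none rose, beside 40.7% of all probe sets called lower and 21.2% higher. The median was -1.16 beside -0.29 over all probe sets, although 3 genes rose with median centring and 2 with quantile normalization.

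Among 6 Hsp70 genes of the organelles and the ribosome, 2 rose and 3 fell in dry cells against control. Of all probe sets 40.1% were called higher and 27.2% lower. The median of the 6 was -0.44 beside 0.24 over all probe sets. SSZ1, the Hsp70 partner of Zuo1, fell from 1882.8 ± 78.8 to 366.9 ± 27.4 (log2 -2.36 ± 0.10, adjusted p = 2.35e-12). KAR2 of the endoplasmic reticulum fell from 3722.7 ± 140.0 to 1901.7 ± 170.1 (-0.97 ± 0.11, adjusted p = 9.75e-07), and SSC1 of mitochondria from 2089.0 ± 34.8 to 1249.7 ± 59.3 (-0.74 ± 0.11, adjusted p = 1.72e-05). ECM10, a mitochondrial Hsp70 gene, was under background in control at 2.4 ± 1.0 and rose to 327.4 ± 40.7. The 3 other nucleotide exchange factors all fell in dry cells against control, beside 27.2% of all probe sets called lower. Their median change has no measured size, since SNL1 and SIL1 were partly or wholly under background in dry cells, while the median over all probe sets was 0.24. SNL1 of the endoplasmic reticulum membrane went from 191.3 ± 29.0 to 36.8 ± 27.3, SIL1, which serves Kar2, from 366.5 ± 12.2 to 22.9 ± 2.8, under background, and MGE1, which serves Ssc1, from 637.1 ± 62.4 to 273.3 ± 58.8.

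In Hsp90, its partners and the disaggregation machinery, 6 of 13 rose and 3 fell in dry cells against control. Of all probe sets 40.1% were called higher and 27.2% lower. The list median was 0.28 beside 0.24 over all probe sets. With median centring 4 rose and 4 fell, median -0.04. HSP26, a small heat shock protein, went from 275.7 ± 24.9 to 3784.1 ± 242.9 (log2 3.78 ± 0.09, adjusted p = 5.45e-15). HSP104, the disaggregase that works with Hsp70, went from 1115.2 ± 90.3 to 2123.5 ± 239.4 (0.93 ± 0.13, adjusted p = 8.16e-06) and was at 601.4 ± 31.6 at 360 min. The inducible Hsp90 gene HSP82, whose probe set carries the i suffix, rose by 1.23 ± 0.17 (adjusted p = 6.15e-06), while the constitutive HSC82 fell from 5094.5 ± 655.4 to 3771.3 ± 36.7 (-0.43 ± 0.11, adjusted p = 0.00367). STI1, which links Hsp70 with Hsp90, changed by 0.28 ± 0.15 and did not pass (adjusted p = 0.107), and CPR6, a cyclophilin partner of Hsp90, fell by 1.31 (log2 -1.31 ± 0.11, adjusted p = 1.45e-08).

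Of 6 regulator genes 5 rose and 1 fell in dry cells against control, beside 40.1% and 27.2% of all probe sets, with a median of 1.27 beside 0.24. GIS1 lost its call with the scan day as a block (1.17 against 0.39), and YAK1 lost it with median centring (0.64 against 0.32) and with the added transcripts (0.33). HSF1, the heat shock transcription factor, went from 332.2 ± 50.4 to 1599.9 ± 32.0 (log2 2.28 ± 0.15, adjusted p = 1.05e-09) and was at 1817.5 ± 19.8 at 360 min. MSN2 went from 709.4 ± 27.7 to 1828.3 ± 153.3 and back to 695.1 ± 42.1, while MSN4, its relative among the general stress factors, fell from 1270.1 ± 12 to 263.6 ± 18.6 (-2.27 ± 0.14, adjusted p = 2.64e-10). RIM15, a kinase of quiescence entry, rose by 1.60 ± 0.10 (adjusted p = 5.84e-10).

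**Figure D5:**
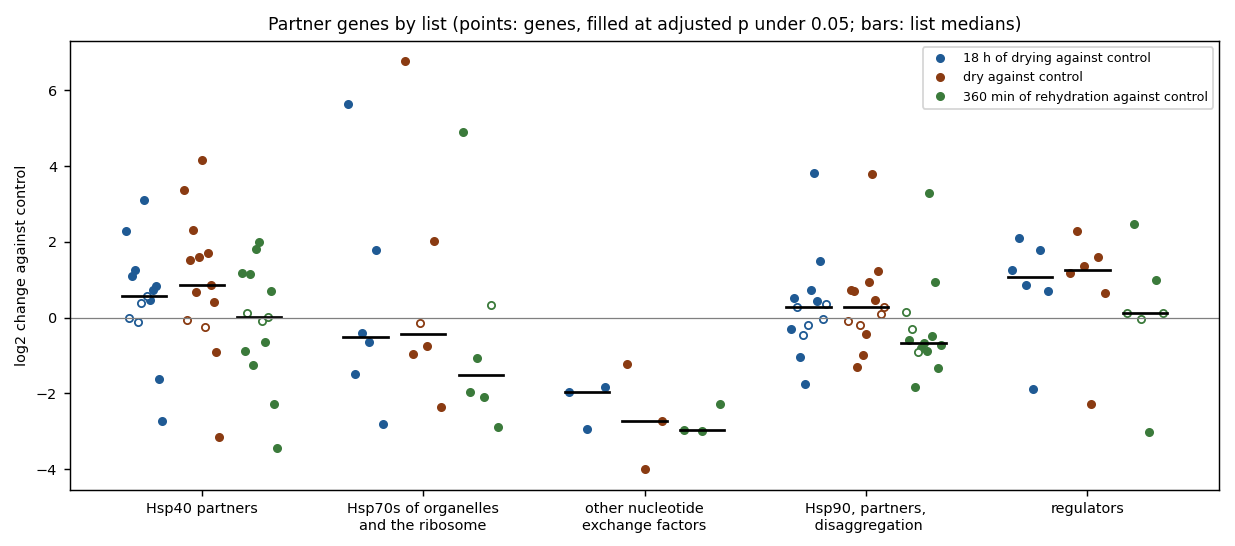
Log2 change against control (y axis) of each partner gene at 18 h of drying, in the dry state and at 360 min of rehydration, by list (x axis), with filled points at adjusted p under 0.05 and bars at list medians. The dry-state medians are 0.86 for the Hsp40 partners, -0.44 for the other Hsp70 genes, -2.73 for the other exchange factors (of no measured size), 0.28 for Hsp90 and its partners and 1.27 for the regulators, and the 3 comparisons share the control arrays. The mean signal of ECM10, JJJ1, JJJ2 and JJJ3 in control, of SIL1 in dry cells and of CPR7 at 18 h and 360 min was at or under background, and SNL1 was close to it in dry cells, so the height of those points carries no size.

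For each member, the 3 genes closest to it were sought among 5110 genes by Pearson's r of the mean log2 signals over the 7 time points, which share arrays and scaling, so r is a description. SSA3 was closest to PXA1, ATG39 and AVT6 (r = 1.000, 0.999 and 0.999), and PXA1 went from 55.7 in control to 3094.7 at 18 h and 2541.8 at 360 min. SSA2 was closest to ARO2, VAS1 and LYS12 (0.999, 0.997 and 0.996), of which ARO2, an aromatic amino acid synthesis gene, went from 3847.5 to 571.9 at 18 h and 465.8 at 360 min. SSE2 was closest to RAD50, CTI6 and CAB3 (0.992, 0.991 and 0.989), all with their highest mean in the dry state. FES1 was closest to SMF3, PRI1 and NUP116 (0.988 for each), and SMF3 went from 2534.7 in the dry state to 636.8 at 360 min. SSE1 was closest to SHO1, SWE1 and DTD1 (0.988, 0.978 and 0.975), and SSA4 to PFA4, UBX2 and YBP1 (0.990, 0.988 and 0.983). SSA1 was closest to PMP3, OLE1 and MEF2 (0.990, 0.986 and 0.981), but its own early values are at the floor and PMP3 went only from 4332.9 in control to 8222.1 at 360 min.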

How the data were processed

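RNA of 21 samples was measured on Affymetrix YG_S98 arrays. The deposited table holds intensities, 1 linear probe set signal per array, which per the labels came from the GeneChip expression software. Per the labels a linear mixed model was also used, and the sources used here do not state whether the deposited signals precede it. Per the file headers, the run records give the scan day, the only use made of them. Of 9335 probe sets, 60 chip controls were left out and 9275 tested. Values under 2.8, the 5th percentile of positive values, were set to 2.8 (4.86% of values) and log2 was taken, which the authors' table does not hold. A limma 3.58.1 model (R 4.3.3) with a mean for each time point took in all 21 arrays and eBayes, with 14 residual and 1.53 prior degrees of freedom, and p-values were adjusted by Benjamini-Hochberg over all tested probe sets. A call is an adjusted p under 0.05, and ± after a log2 change is its standard error. The method was tested on simulated data. Names came from GEO's platform annotation, updated through RefSeq (R64, for names alone): 6504 list 1 gene, 328 several and 2443 none. Some suffix letter is carried by 1730, not in all cases for possible cross-hybridization. The brightest probe set stands for a gene. The members and gene lists were chosen with earlier results of these data known. Named in the text are all members, fixed partners (YDJ1, SIS1, ZUO1, SSZ1, KAR2, SSC1, SNL1, HSP104, HSP26, HSP82, HSC82, STI1, HSF1, MSN2 and MSN4), up to 2 other genes of a list with the smallest adjusted p, and the 3 genes of most similar pattern per member. Alternatives were other scalings (quantile, median centring, the 9 probe sets of the added control transcripts), a higher floor, log2(value + 50), a filter on the dimmest 25%, an intensity trend, replicate and scan day blocks, a 2-fold minimum, only the 2 groups compared, and each array left out. The number of arrays limits the precision.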

Additional observations from a re-analysis of the deposited data

How the results depend on the processing

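The moderated F test called all 7 genes in every setting run, and the calls of SSA2, SSA3, SSE1 and SSE2 at 18 h and of SSA2, SSA3, SSE1 and SSE2 in dry cells against control held in every scaling. Of 1008 recomputed log2 changes of members, 927 stayed on the same side of the threshold (47 uncalled values changed sign), 45 lost the call, 29 gained it and 7 changed sign with a call under at least one of both settings. The cause was not tested. The 7 were SSA3 at 15 min against dry (-0.11 with quantile normalization, -0.38 with the added transcripts), SSA4 at 360 min against dry (0.16 with quantile normalization and 0.16 with median centring), SSA3 at 360 min against dry (0.19 with median centring), SSA4 at 360 against 90 min (-0.75 with the added transcripts) and SSE2 at 360 min against control (-2.13 with the added transcripts).

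Members called in dry against 18 h (2) became 1 with the added transcripts, with the replicate block and within the shared scan day, 0 at 2-fold, and 1 to 2 without one array, while a fall of SSA4 was gained in 8 settings, quantile normalization, median centring and the scan day block among them, and a fall of SSA3 (-0.33) with median centring. At 15 min against dry 5 became 3 with quantile normalization and with median centring and 1 at 2-fold. At 90 against 45 min 1 became 0 with quantile normalization, median centring, the replicate block, a 2-fold minimum and only the 2 groups compared, and 0 to 1 without one array. At 360 against 90 min 3 became 5 with quantile normalization and with the added transcripts and 1 at 2-fold. At 360 min against dry 5 became 3 with median centring and at 2-fold, and 3 to 5 without one array (3 without dry replicate 3 or 360 min replicate 1).

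A 2-fold minimum left 3880 of 5894 probe sets at 18 h, 1321 of 3633 for dry against 18 h, 1162 of 3737 for 15 min against dry, 6 of 39 for 45 against 15 min, 50 of 508 for 90 against 45 min, 984 of 3471 for 360 against 90 min and 3520 of 5743 for 360 min against dry. The added transcripts gave 2418, 5924, 0 and 6019 for dry against 18 h, 15 min against dry, 45 against 15 min and 360 against 90 min. For 45 against 15 min the 39 became 25 with median centring, 59 with the higher floor, 64 with the intensity trend, 21 with the replicate block, 60 with the scan day block, 1 with only the 2 groups and 12 to 87 without one array, and for 90 against 45 min the 508 became 2 with only the 2 groups and 242 to 582 without one array. The SSA3 minus SSA4 change from dry to 360 min was -0.017 with log2(value + 50) (5.83 and 5.97 in place of 7.23 and 7.40 for 18 h and dry against control) and -0.081 to 0.10 without one array, falling under 0 without dry replicate 2 or 360 min replicate 2 (-0.053). Replicate numbers gave no sign of pairing, though this cannot show how the samples were taken. Deviations from the time point means correlated between -0.13 and 0.09 in 63 same-numbered pairs and between -0.17 and 0.16 in 126 others. Beside the members and counts given above the replicate block called 6 rather than 7 genes at 360 min against control. No member has a second probe set of its own, and SSB1 and SSB2 have none, so other probe sets and these pairs were not run. SSA3 in control lay around background, and SSA1 was listed at 0 or 0.1 on all control, 18 h and dry arrays but the 18 h array at 209.5, so their levels there are not well measured.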
